A study of Mus musculus with 12 samples.

Results

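The IGF axis was represented by 10 genes of the 19037 in the deposited table: the ligand Igf1, its receptor Igf1r, the docking protein Irs2 and the binding proteins Igfbp1 to Igfbp7, each taken by its symbol. They were measured by RNA-seq in AML12, a mouse hepatocyte line made from mice transgenic for human TGF-alpha. The study set the drug FK228 beside overexpressed class I histone deacetylase (HDAC) YF mutants. There were 12 libraries in 4 groups of 3: FK228 plus YF, FK228 alone, YF alone, and control. FK228 (romidepsin) inhibits class I HDACs. A GFP code stands in the descriptions of the FK228-alone and the control libraries, and a YF code in those of the other 6. The sources used here do not give the dose and duration of FK228, the culture medium or which HDACs carried the YF change.

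IGF1 is a hormone that liver makes under growth hormone, and in the blood it is bound by a family of secreted binding proteins that set how much reaches its receptor. IGF1R, a receptor tyrosine kinase, passes the signal through docking proteins such as IRS2 to PI3K and AKT, which keep FOXO transcription factors out of the nucleus. Some binding proteins are released from IGF by proteases, and others, such as IGFBP7, bind IGF only weakly.

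Libraries held between 23664436 and 26122987 estimated counts, so a count of 3 corresponded to 0.114 to 0.126 CPM (counts per 1000000, after scaling library totals by edgeR's TMM factors). The labels do not state that replicates were grown as separate cultures, so the p-values cover only the spread among these libraries, and that spread may be technical. Hdac1 averaged 797 ± 2.16 CPM in FK228 plus YF, 110 ± 3.3 CPM in FK228, 402 ± 18.9 CPM in YF and 97.7 ± 5.13 CPM in control (SD, n = 3 each). Of 12 listed hepatocyte markers, 10 passed the count filter, and the keratins Krt8 and Krt18 took most of their summed level. Albumin (Alb) averaged 0.256 CPM in YF and less in the other groups, so the defining hepatocyte product was close to the floor of 3 counts throughout. In bulk RNA, fewer cells of a type and less RNA per cell cannot be told apart.

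All 10 members matched promoters in the RefSeq table of GRCm38.p6, which holds 250 bases before and 50 after each start. The 250 bases before the start are printed 5′ to 3′ on the gene's strand, for the 3 binding proteins that the results turn on and for Igfbp1, the almost undetected neighbour of Igfbp3. They lie at chr11:99040994-99041243 on the plus strand (Igfbp4), chr5:77408046-77408295 on the minus strand (Igfbp7), chr11:7213924-7214173 on the minus strand (Igfbp3) and chr11:7197537-7197786 on the plus strand (Igfbp1). The stretches of Igfbp4 and Igfbp3 lie inside the gene spans given below, so for these genes the start is not the outer end of the annotated gene. Capitals mark any match, on either strand, to 1 of 6 motifs searched.
Igfbp4: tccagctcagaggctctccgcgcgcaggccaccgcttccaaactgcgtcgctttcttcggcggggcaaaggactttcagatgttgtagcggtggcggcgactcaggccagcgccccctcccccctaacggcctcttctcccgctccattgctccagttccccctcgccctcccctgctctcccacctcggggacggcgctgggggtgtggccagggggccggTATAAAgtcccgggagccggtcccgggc
Igfbp7: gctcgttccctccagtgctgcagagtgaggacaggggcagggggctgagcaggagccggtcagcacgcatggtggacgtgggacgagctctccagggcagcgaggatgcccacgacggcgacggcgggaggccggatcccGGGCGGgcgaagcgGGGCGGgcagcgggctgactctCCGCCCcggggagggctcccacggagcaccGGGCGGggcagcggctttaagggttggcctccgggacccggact
Igfbp3: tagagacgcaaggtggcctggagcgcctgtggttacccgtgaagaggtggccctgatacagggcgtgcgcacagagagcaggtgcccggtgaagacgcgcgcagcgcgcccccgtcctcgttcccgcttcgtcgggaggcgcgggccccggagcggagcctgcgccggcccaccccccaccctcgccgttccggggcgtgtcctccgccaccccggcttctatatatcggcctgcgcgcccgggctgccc
Igfbp1: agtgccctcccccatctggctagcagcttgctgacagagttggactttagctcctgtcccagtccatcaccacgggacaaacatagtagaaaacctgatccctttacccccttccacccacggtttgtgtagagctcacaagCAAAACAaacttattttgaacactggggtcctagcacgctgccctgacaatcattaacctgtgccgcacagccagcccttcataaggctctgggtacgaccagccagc

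The motifs were the GC box GGGCGG, the TATA element TATAAA, the CAAT element CCAAT, the E-box CACGTG, the FOXO site TGTTTAC and the insulin response element core CAAAACA, and no matches overlapped in the promoters shown. In the 300-base promoters they occurred in 35.7%, 13.6%, 37.4%, 7.15%, 3.65% and 6.28% of 32851 promoters, in that order. Igfbp4 had a single TATA box, whose first base lay at -28 from the start, and Igfbp7 had 4 GC boxes between -110 and -44. Igfbp3 had no match to the 6 motifs. Igfbp1, which insulin is known to repress in liver, held CAAAACA at -108, and Irs2 held the same letters at -37 and an E-box at -44.

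CpG content differed among the members' 300-base promoters. Igf1r held 48 CpG, Irs2 41, Igfbp3 37, Igfbp7 33 and Igfbp4 27, against a median of 7 over all promoters. Igfbp2 held 18 and 14 in its 2 promoters, Igfbp5 10, Igfbp1 8, Igfbp6 8 and Igf1 6. The 4 members with the highest levels in control cells (Igfbp7, Igfbp4, Irs2 and Igf1r) were all among the 5 with 27 or more CpG. The other of these 5, Igfbp3, was scarce in control at 0.619 ± 0.115 CPM (SD, n = 3), with more CpG than Igfbp7 or Igfbp4. A relation of CpG count to level was not tested. On the chromosome, Igfbp1 (chr11:7197787-7202546) ended 3539 bases before Igfbp3 (chr11:7206086-7215498), and Igfbp2 (chr1:72824480-72852474) ended 5590 bases before Igfbp5 (chr1:72858065-72874865), with 0 annotated genes between either pair. Igfbp4 (chr11:99040005-99052655) and Igfbp7 (chr5:77349240-77408045) have no other member beside them.

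Binding proteins made up nearly all of the members' RNA, and Igfbp7 and Igfbp4 nearly all of that. Levels between genes are given per length, as the TPM (transcript abundance scaled to gene length and library size) that the authors deposited. In control cells the order was Igfbp7 at 1464 ± 38.1, Igfbp4 at 499 ± 39.4, Irs2 at 8.98 ± 0.173 and Igf1r at 6.13 ± 0.642 TPM (SD, n = 3). Igfbp6 at 0.593 ± 0.199, Igfbp5 at 0.333 ± 0.206, Igfbp3 at 0.31 ± 0.0557 and Igf1 at 0.243 ± 0.00577 TPM followed. In control Igfbp5 and Igfbp3 differed by less than their SD, and the libraries of Igfbp6 and Igfbp5 overlapped. In FK228 plus YF the top 4 kept their order, at 925 ± 48.3 TPM for Igfbp7, 72.7 ± 6.48 for Igfbp4, 12.8 ± 0.911 for Irs2 and 2.9 ± 0.314 for Igf1r, and Igfbp3 came next at 1.87 ± 0.337 TPM.

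The summed TPM of the 7 binding proteins was 1000.01 ± 53.1 in FK228 plus YF, 1365 ± 29.2 in FK228, 1759.7 ± 55 in YF and 1965 ± 76.1 in control (SD, n = 3 each). Igfbp4 supplied 7.27 ± 0.392% of that sum in FK228 plus YF, 8.96 ± 1.1% in FK228, 23.4 ± 1.72% in YF and 25.4 ± 1.04% in control. The pool was therefore smaller and held a lower share of Igfbp4 in both FK228 groups. The ratio of Igfbp7 to Igfbp4 TPM was 12.8 ± 0.715 in FK228 plus YF, 10.3 ± 1.47 in FK228, 3.29 ± 0.318 in YF and 2.94 ± 0.161 in control. TPM carries no TMM scaling here. In TMM-scaled CPM, which is not scaled to gene length, the groups kept the same order of sums. The 7 binding proteins summed to 901 ± 54.1 CPM in FK228 plus YF, 1301 ± 84 in FK228, 1681 ± 39 in YF and 2018 ± 82.6 in control. These sums and ratios are descriptions, with no test.

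**Figure D1:**
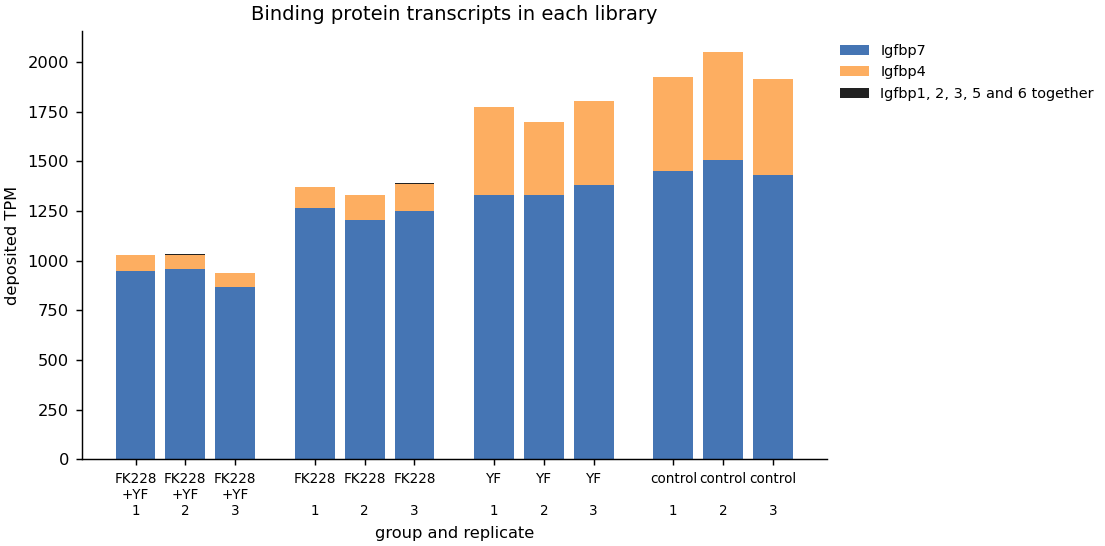
Stacked bars of the deposited TPM of Igfbp7, Igfbp4 and the other 5 binding proteins (vertical axis) in each of the 12 libraries, by group and replicate (horizontal axis). The summed level averages 1000.01 TPM in FK228 plus YF, 1365 in FK228, 1759.7 in YF and 1965 in control, and the Igfbp4 portion shrinks in both FK228 groups.

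Igfbp4, an inhibitory binding protein that holds IGF away from its receptor until a protease cuts it, changed by the largest ratio among the abundant members. FK228 lowered it with and without YF, and YF alone lowered it by less. Its level was 139, 122 and 114 CPM in the FK228 plus YF libraries, 203, 223 and 223 CPM in FK228, 680, 592 and 662 CPM in YF, and 768, 886 and 829 CPM in control. The 4 groups did not overlap, with FK228 plus YF lowest and control highest. Against control, Igfbp4 fell to 0.151-fold in FK228 plus YF (log2 fold change -2.73 ± 0.08 SE, adjusted p = 2.87e-17, edgeR's quasi-likelihood test with Benjamini-Hochberg adjustment over 13346 genes). It fell to 0.262-fold with FK228 (-1.93 ± 0.08, adjusted p = 9.9e-15) and to 0.779-fold with YF (-0.36 ± 0.08, adjusted p = 0.000905).

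FK228 plus YF lay below YF alone for Igfbp4 by -2.37 ± 0.08 on the log2 scale (adjusted p = 4.22e-16) and below FK228 alone by -0.80 ± 0.08 (adjusted p = 3.93e-08). FK228 alone lay below YF alone by -1.57 ± 0.08 (adjusted p = 3.63e-13). The summed level of hepatocyte markers, mostly Krt8 and Krt18, was also lowest in FK228 plus YF and highest in control, with FK228 and YF overlapping. That sum was 2097 to 2544 CPM in FK228 plus YF, 3235 to 3486 in FK228, 3421 to 3501 in YF and 3724 to 3971 in control. Of the 10 tested markers, 9 fell and 0 rose in FK228 plus YF against control, 7 fell and 1 rose with FK228, and 4 fell and 2 rose with YF. Over all 13346 tested genes, 38.6% fell and 38.8% rose in FK228 plus YF, 35.5% and 33.2% with FK228, and 14.6% and 18% with YF. Hnf4a, a defining hepatocyte transcription factor, averaged 28.7 ± 1.24 CPM in FK228 plus YF, 50.6 ± 3.31 in FK228, 121 ± 5.81 in YF and 177 ± 7.51 in control. Not all markers had this order. Krt18 averaged 1574 ± 153 CPM in FK228 against 1283 ± 66 in control, and Trf 627 ± 32 CPM in YF against 519 ± 51.6 in control. The part of these markers in the fall of Igfbp4 was not tested.

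Igfbp7, a secreted protein with weak IGF binding, was the most abundant member in every library. It fell most when FK228 and YF were combined. It stood at 807, 785 and 723 CPM in FK228 plus YF, 1186, 1055 and 1003 CPM in FK228, 994, 1047 and 1056 CPM in YF, and 1159, 1202 and 1201 CPM in control. The FK228 plus YF libraries lay below all 9 others, while FK228 replicate 1 lay within the control range. Igfbp7 fell to 0.65-fold in FK228 plus YF against control (-0.62 ± 0.07, adjusted p = 3.99e-08), to 0.748-fold against YF (-0.42 ± 0.07, adjusted p = 1.31e-05) and to 0.714-fold against FK228 (-0.49 ± 0.07, adjusted p = 4.85e-06).

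With YF alone Igfbp7 fell by 0.20 ± 0.07 on the log2 scale against control (adjusted p = 0.0271), and the adjusted p was 0.108, 0.0564, 0.0741 and 0.0757 without YF replicate 1, YF replicate 3, control replicate 2 and control replicate 3. With FK228 alone its difference from control was -0.13 ± 0.07 (adjusted p = 0.0845), which became -0.19 without FK228 replicate 1 (adjusted p = 0.0134). FK228 and YF alone differed by 0.07 ± 0.07 in Igfbp7 (adjusted p = 0.406).

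Igfbp3, the main carrier of IGF in blood, was the binding protein that rose, from low counts. It was higher in all 3 treated groups, most with both treatments. The libraries held 3.13, 4.00 and 4.45 CPM in FK228 plus YF, 1.80, 1.58 and 1.36 CPM in FK228, 2.84, 3.09 and 2.82 CPM in YF, and 0.736, 0.616 and 0.505 CPM in control. The 4 groups did not overlap, although FK228 plus YF replicate 1 lay only just above the highest YF library. These levels rested on 75, 99 and 106 counts in FK228 plus YF, 44, 39 and 33 in FK228, 72, 81 and 74 in YF and 19, 16 and 13 in control.

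Against control, Igfbp3 rose 6.19-fold in FK228 plus YF (2.63 ± 0.23, adjusted p = 8.81e-10), 2.54-fold with FK228 (1.34 ± 0.25, adjusted p = 8.56e-05) and 4.68-fold with YF (2.23 ± 0.23, adjusted p = 3.01e-07). FK228 plus YF lay above FK228 alone by 1.29 ± 0.20 on the log2 scale (adjusted p = 1.47e-05), and FK228 alone lay below YF alone by -0.88 ± 0.20 (adjusted p = 0.000751). The difference between FK228 plus YF and YF was 0.40 ± 0.18 (adjusted p = 0.0532). That difference passed the threshold with DESeq2 size factors (0.43, adjusted p = 0.0374), with limma-voom (0.39, adjusted p = 0.0487) and with the compared groups alone (0.41, adjusted p = 0.0449). It also passed without FK228 plus YF replicate 1 (0.53, adjusted p = 0.02) and without FK228 replicate 1 (0.41, adjusted p = 0.0488).

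Igfbp3 is known to be made largely by non-parenchymal cells in liver, so the markers of such cells are given beside it. Stellate and fibroblast markers summed to 32.4 to 40.4 CPM in FK228 plus YF, 31.6 to 33.1 in FK228, 12.8 to 18.3 in YF and 7.74 to 10.5 in control, and most of that was Des. Of these 10 markers 3 passed the count filter. Lrat, which defines stellate cells, was at 0 counts in FK228 plus YF, FK228 and YF and had 1 count in control. Of the 3 tested, 3 rose in FK228 plus YF against control, 2 rose with FK228 and 1 with YF, beside 38.8%, 33.2% and 18% of all tested genes. Endothelial markers summed to 0.75 to 1.57 CPM in FK228 plus YF, 0.404 to 0.868 in FK228, 0.419 to 0.672 in YF and 0.154 to 0.194 in control, and 0 of 7 passed the filter.

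Macrophage and leukocyte markers summed to 52.1 to 60.4 CPM in FK228 plus YF, 24 to 30.1 in FK228, 9.87 to 11.8 in YF and 4.2 to 4.57 in control. Most of that was Cd68, a lysosomal protein. The Kupffer cell marker Vsig4 was at 0 counts in FK228 plus YF, FK228 and control and had 1 count in YF. Of 8 macrophage markers 4 were tested: 2 rose in FK228 plus YF against control, 3 with FK228 and 2 with YF. Over all tested genes, 38.8%, 33.2% and 18% rose in these comparisons. Cholangiocyte markers summed to 4302 to 5123 CPM in FK228 plus YF, 5421 to 5812 in FK228, 5354 to 5575 in YF and 4868 to 4941 in control, mostly Spp1. Of the 5 tested, 3 fell and 1 rose in each comparison with control: Krt19, Krt7 and Sox9 fell in all 3, while Cldn4 rose in FK228 plus YF and Spp1 with FK228 and with YF. The shares of all tested genes that fell were 38.6% in FK228 plus YF, 35.5% with FK228 and 14.6% with YF. Krt19, a biliary keratin, averaged 107 ± 6.4 CPM in FK228 plus YF, 173 ± 6.83 in FK228, 284 ± 24.1 in YF and 606 ± 82.6 in control. The part of these markers in the rise of Igfbp3 was not tested.

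Igfbp5, which like Igfbp3 can form a large complex with IGF and the acid-labile subunit, was scarce and fell most in FK228 plus YF. It stood at 0.0834, 0.162 and 0.336 CPM in FK228 plus YF, 0.571, 1.01 and 0.413 CPM in FK228, 1.54, 0.572 and 0.838 CPM in YF, and 0.929, 2.73 and 1.24 CPM in control. All FK228 plus YF libraries lay below the other 9, the FK228, YF and control ranges overlapped, and control replicate 2 lay highest. Summed counts were 14 in FK228 plus YF, 49 in FK228, 76 in YF and 127 in control. The ratio of FK228 plus YF to control of summed counts, scaled by library size, was 0.118, with an exact 95% interval of 0.0626 to 0.205 that covers counting error only.

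The fit gave Igfbp5 a log2 fold change of -3.05 ± 0.57 in FK228 plus YF against control (adjusted p = 8.57e-05) and -2.31 ± 0.61 against YF (adjusted p = 0.00248). Against FK228 the value was -1.76 ± 0.65 (adjusted p = 0.0304), and the adjusted p was 0.113, 0.0862 and 0.142 without FK228 plus YF replicate 1, FK228 plus YF replicate 2 and FK228 replicate 2. FK228 against control gave -1.29 ± 0.45 (adjusted p = 0.0175), with values of -1.17 without FK228 replicate 1 (adjusted p = 0.0642), -1.04 without FK228 replicate 3 (adjusted p = 0.0763) and -0.70 without control replicate 2 (adjusted p = 0.179). YF against control gave -0.74 ± 0.42 (adjusted p = 0.198).

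Igfbp6, which prefers IGF2 to IGF1, passed the threshold in none of the 6 pairwise comparisons or the interaction by edgeR, and its groups overlapped in all 6. Its libraries ranged over 0.333 to 0.671 CPM in FK228 plus YF, 0.404 to 0.979 in FK228, 0.158 to 0.534 in YF and 0.426 to 0.77 in control. The widest difference was that of FK228 over YF at 0.98 ± 0.49 (adjusted p = 0.0896), which reached 1.63 without YF replicate 2 (adjusted p = 0.0219). Igfbp1, a liver binding protein that insulin represses, had 0 counts in all libraries of FK228 plus YF, FK228 and YF, and 1 count in control replicate 1. Igfbp2, another hepatic binding protein, had 2 counts in FK228 plus YF, 2 in FK228, 0 in YF and 2 in control, summed over 3 libraries. Neither was detectable at this depth beyond the floor of 3 counts per library, and neither passed the filter for testing.

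**Figure D2:**
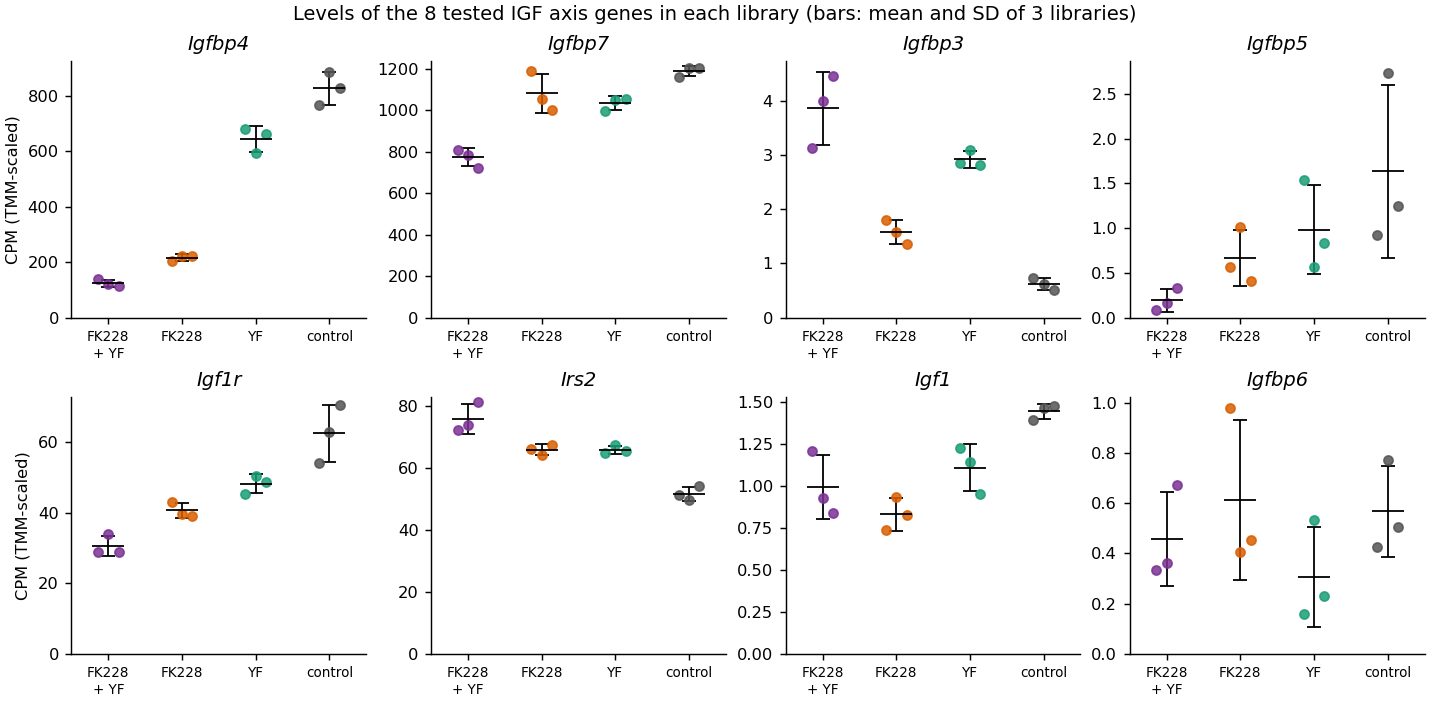
TMM-scaled CPM (vertical axes, from 0) of the 8 tested members in each library of the 4 groups (horizontal axes), where points are libraries and bars the mean and SD of 3. Igfbp4 lies between 114 and 139 CPM in FK228 plus YF against 768 to 886 CPM in control, and Igfbp3 lies between 3.13 and 4.45 CPM against 0.505 to 0.736 CPM.

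Igf1, the ligand, was close to the lower limit of testing. Its libraries held 1.21, 0.929 and 0.839 CPM in FK228 plus YF, 0.734, 0.93 and 0.827 CPM in FK228, 1.22, 1.14 and 0.952 CPM in YF, and 1.39, 1.46 and 1.48 CPM in control. Control was highest in all 3 libraries and overlapped no other group. Igf1 fell to 0.576-fold with FK228 against control (-0.80 ± 0.26, adjusted p = 0.00974). In FK228 plus YF the difference from control was -0.54 ± 0.25 (adjusted p = 0.0564), which passed the threshold with limma-voom (-0.55, adjusted p = 0.0488) and without FK228 plus YF replicate 1 (-0.71, adjusted p = 0.0336). YF against control gave -0.38 ± 0.25 (adjusted p = 0.246). No comparison between the 3 treated groups passed the threshold for Igf1, with adjusted p of 0.607 for FK228 plus YF against YF, 0.453 against FK228, and 0.19 for FK228 against YF.

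Igf1r, the receptor, fell in all 3 treated groups and most in FK228 plus YF. Its libraries held 28.8, 33.9 and 28.8 CPM in FK228 plus YF, 43.1, 39.8 and 39.1 CPM in FK228, 45.3, 50.5 and 48.8 CPM in YF, and 54.1, 62.9 and 70.4 CPM in control. The 4 groups stood in that order with no overlap. Against control the receptor fell to 0.489-fold in FK228 plus YF (-1.03 ± 0.09, adjusted p = 1.16e-09), 0.651-fold with FK228 (-0.62 ± 0.09, adjusted p = 2.37e-06) and 0.772-fold with YF (-0.37 ± 0.08, adjusted p = 0.00196). FK228 plus YF lay below YF alone by -0.66 ± 0.09 (adjusted p = 1.34e-06) and below FK228 alone by -0.41 ± 0.09 (adjusted p = 0.00063). FK228 lay below YF by -0.25 ± 0.09 (adjusted p = 0.0186), and this call was lost with DESeq2 (-0.20, adjusted p = 0.0561) and without FK228 replicate 2 (-0.21, adjusted p = 0.088), FK228 replicate 3 (-0.22, adjusted p = 0.0645) or YF replicate 2 (-0.21, adjusted p = 0.0696).

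Irs2, the docking protein that FOXO factors are known to induce in fasting liver, rose in all 3 treated groups by small ratios. Its libraries held 72.1, 73.8 and 81.2 CPM in FK228 plus YF, 66.1, 64.1 and 67.5 CPM in FK228, 64.8, 67.3 and 65.4 CPM in YF, and 51.3, 49.5 and 54 CPM in control. Control lay below the rest and FK228 plus YF above, while FK228 and YF overlapped. Irs2 rose 1.47-fold in FK228 plus YF against control (0.55 ± 0.06, adjusted p = 2.71e-08), 1.28-fold with FK228 (0.35 ± 0.06, adjusted p = 2.34e-05) and 1.28-fold with YF (0.35 ± 0.06, adjusted p = 0.000118). FK228 plus YF lay above YF by 0.20 ± 0.06 (adjusted p = 0.00442) and above FK228 by 0.20 ± 0.06 (adjusted p = 0.00697). The last call was lost without FK228 plus YF replicate 3 (0.15, adjusted p = 0.0637) and without FK228 replicate 2 (0.16, adjusted p = 0.0533). FK228 and YF alone differed by 0.00 ± 0.06 (adjusted p = 0.989).

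Of the 8 members tested, counts of calls are set beside the share of all 13346 tested genes called in the same direction. FK228 plus YF against control called 2 higher (Irs2, Igfbp3) and 4 lower (Igf1r, Igfbp4, Igfbp5, Igfbp7), with 38.8% of all genes higher and 38.6% lower. FK228 against control called 2 higher (Irs2, Igfbp3) and 4 lower (Igf1, Igf1r, Igfbp4, Igfbp5), with 33.2% higher and 35.5% lower. YF against control called 2 higher (Irs2, Igfbp3) and 3 lower (Igf1r, Igfbp4, Igfbp7), with 18% higher and 14.6% lower. The members' median log2 fold change was -0.58, -0.38 and -0.37 in these 3 comparisons, beside 0.01, -0.02 and 0.01 over all genes. The 3 comparisons share the control libraries, so their calls are not independent.

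Against YF, FK228 plus YF called 1 member higher and 4 lower, with 34.7% and 35.9% of all genes. Against FK228, it called 2 higher and 4 lower, with 26.6% and 26.3% of all genes. FK228 against YF called 0 higher and 3 lower, with 27.8% and 33.3% of all genes. The share of members called lower was above the background in all 6 pairwise comparisons, and the share called higher was above it only in YF against control. With 8 members, nothing particular to the list is read from these counts.

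**Figure D3:**
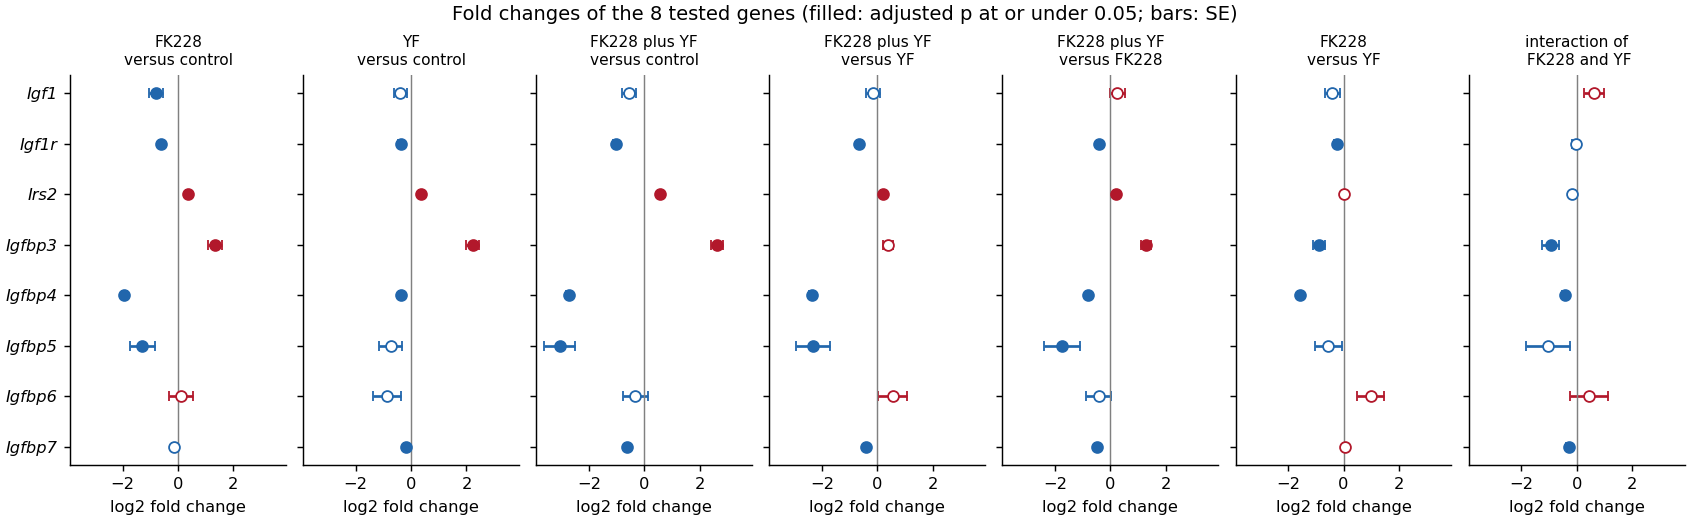
Log2 fold changes (horizontal axes) of the 8 tested members (rows) in the 6 pairwise comparisons and the interaction, with bars for the SE and filled points for an adjusted p at or under 0.05. Igfbp3 lies furthest to the right, at 2.63 in FK228 plus YF against control, and Igfbp4 and Igfbp5 furthest to the left, at -2.73 and -3.05.

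The design also allows a test of whether the FK228 effect differed with YF present, as the FK228 effect in YF cells minus that without YF on the log2 scale. Hdac1 RNA also differed between the YF groups, at 797 ± 2.16 CPM with FK228 and 402 ± 18.9 without. In cells without YF it was 110 ± 3.3 and 97.7 ± 5.13 CPM. FK228 plus YF against YF and the interaction therefore do not hold the Hdac1 level fixed, and its part was not tested. This interaction was called lower for 3 of 8 members and higher for 0, with 15.3% and 11.1% of all genes. For Igfbp4 the FK228 effect was larger with YF (-2.37 in YF cells against -1.93 without, difference -0.44 ± 0.11, adjusted p = 0.00488), and this call held without any 1 library. For Igfbp3 it was smaller in YF cells (0.40, not called, against 1.34 without, difference -0.94 ± 0.31, adjusted p = 0.0312). Igfbp7 gave -0.42 in YF cells against -0.13 without (difference -0.28 ± 0.10, adjusted p = 0.0338). The Igfbp3 call was lost without FK228 plus YF replicate 1 (-0.81, adjusted p = 0.0676), FK228 replicates 1 (-0.85, adjusted p = 0.0684) or 2 (-0.95, adjusted p = 0.0518), YF replicate 2 (-0.90, adjusted p = 0.057), or control replicates 2 (-0.94, adjusted p = 0.0555) or 3 (-0.82, adjusted p = 0.0913). The Igfbp7 call was lost without FK228 plus YF replicate 3 (-0.24, adjusted p = 0.101), FK228 replicate 1 (-0.22, adjusted p = 0.0607), YF replicates 2 (-0.28, adjusted p = 0.0591) or 3 (-0.27, adjusted p = 0.0811), or control replicate 3 (-0.30, adjusted p = 0.0508). The interaction missed the threshold for Igf1 (0.64 ± 0.37, adjusted p = 0.218), Igf1r (-0.04 ± 0.12, adjusted p = 0.848), Irs2 (-0.15 ± 0.08, adjusted p = 0.197), Igfbp5 (-1.02 ± 0.79, adjusted p = 0.375) and Igfbp6 (0.45 ± 0.68, adjusted p = 0.673).

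The rest of the pathway was read through 6 lists with 71 listed genes, of which 69 were in the table and 60 were tested. In FK228 plus YF against control 24 rose and 21 fell, beside 38.8% higher and 38.6% lower over all tested genes. With FK228 19 rose and 22 fell (33.2% and 35.5% of all genes), and with YF 10 rose and 11 fell (18% and 14.6%). FK228 plus YF against YF gave 23 higher and 23 lower (34.7% and 35.9%), FK228 plus YF against FK228 16 and 19 (26.6% and 26.3%), FK228 against YF 19 and 19 (27.8% and 33.3%), and the interaction 5 and 15 (11.1% and 15.3%). In the 6 pairwise comparisons these shares of 60 genes lay near the background. The same background holds for the counts of each list, which are given as descriptions.

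In the growth hormone arm, which drives Igf1 in liver, 6 of 7 genes were tested. In FK228 plus YF against control 2 rose and 4 fell. Ghr, the growth hormone receptor, rose by 0.75 ± 0.08 on the log2 scale (adjusted p = 2.98e-08), while Cish, a feedback inhibitor of the receptor, fell by 1.63 ± 0.08 (adjusted p = 8.21e-14). Stat5a, a transcription factor that the receptor activates, fell by 0.77 ± 0.10 (adjusted p = 6.84e-07), and the kinase Jak2 by 0.59 ± 0.06 (adjusted p = 8.77e-09). With FK228 alone 2 rose and 3 fell: Ghr rose by 0.77 ± 0.08 (adjusted p = 3.35e-08) and Socs2, another feedback inhibitor, by 0.99 ± 0.09 (adjusted p = 3.96e-09). Cish fell by 1.09 ± 0.08 with FK228 (adjusted p = 8.36e-11) and Stat5a by 0.49 ± 0.10 (adjusted p = 0.000228). With YF 1 rose, Ghr by 0.27 ± 0.08 (adjusted p = 0.0154), and 0 fell.

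Among proteases of the binding proteins, their inhibitors and partners, 6 of 10 were tested. In FK228 plus YF against control 2 rose and 3 fell. Igfals, which encodes the acid-labile subunit of the circulating IGF complex, fell by 3.26 ± 0.30 (adjusted p = 2.7e-09), and Stc2, a secreted inhibitor of the IGFBP4 protease PAPP-A, fell by 1.82 ± 0.15 (adjusted p = 3.73e-10). Ctsd, the lysosomal protease cathepsin D, rose by 1.08 ± 0.06 (adjusted p = 1.66e-12), and Htra1, a serine protease that can cut IGF binding proteins, rose by 0.94 ± 0.06 (adjusted p = 1.05e-11). With FK228 3 rose and 3 fell, among them Igfals at -2.82 ± 0.29 (adjusted p = 2.08e-08), Stc1, a relative of Stc2, at -1.90 ± 0.43 (adjusted p = 0.000647), Stc2 at -1.40 ± 0.14 (adjusted p = 2.22e-08) and Ctsd at 1.14 ± 0.06 (adjusted p = 1.77e-12). With YF 0 rose and 2 fell, Igfals by 0.87 ± 0.23 (adjusted p = 0.00625) and the membrane protease Tmprss2 by 0.37 ± 0.14 (adjusted p = 0.0397). Igfals and Stc1 were scarce. Igfals had 26 summed counts in FK228 plus YF, 36 in FK228, 148 in YF and 270 in control. Stc1 had 83, 30, 144 and 119 in the same order, and its control libraries ranged over 0.62 to 2.22 CPM. Pappa itself averaged 0.0956 CPM in FK228 plus YF, 0.191 in FK228, 0.218 in YF and 0.258 in control and was not tested.

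Of 18 receptors, docking proteins and adaptors, 14 were tested, and 7 rose and 3 fell in FK228 plus YF against control. Insr, the insulin receptor and nearest relative of Igf1r, fell by 0.85 ± 0.09 (adjusted p = 3.33e-08), and Irs1, the other main docking protein, by 1.07 ± 0.13 (adjusted p = 2.06e-07), whereas Irs2 rose. Ptpn1, a phosphatase that switches the insulin receptor off, rose by 0.96 ± 0.06 (adjusted p = 2.62e-12), and the adaptor Sh2b2 by 1.01 ± 0.14 (adjusted p = 1.11e-06). With FK228 6 rose and 3 fell: Irs1 fell by 0.61 ± 0.13 (adjusted p = 0.000253), and Ptpn1 rose by 0.53 ± 0.06 (adjusted p = 7.7e-08). The inhibitory adaptor Grb14 rose by 0.58 ± 0.12 with FK228 (adjusted p = 0.000159), and Sh2b2 by 0.51 ± 0.14 (adjusted p = 0.00364). With YF 5 rose and 3 fell, and the cytokine-signalling suppressors Socs1 at 0.73 ± 0.13 (adjusted p = 0.000152) and Socs3 at 0.65 ± 0.07 (adjusted p = 2.84e-07) rose, as did Sh2b2 at 0.64 ± 0.14 (adjusted p = 0.00147) and the docking protein Gab1 at 0.73 ± 0.20 (adjusted p = 0.0165).

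All 25 genes of the PI3K, AKT and FOXO arm were tested, and 11 rose and 6 fell in FK228 plus YF against control, beside 38.8% and 38.6% of all genes. Foxo6, a FOXO transcription factor, fell by 0.93 ± 0.13 (adjusted p = 1.26e-06), and Phlpp2, an AKT phosphatase, by 0.88 ± 0.14 (adjusted p = 1.19e-05). Pdpk1, a kinase that activates AKT, rose by 0.82 ± 0.08 (adjusted p = 5.64e-09), and Pik3cb, a catalytic subunit of PI3K, by 0.79 ± 0.09 (adjusted p = 3.6e-07). With FK228 6 rose and 7 fell: Foxo6 fell by 0.86 ± 0.13 (adjusted p = 5.5e-06) and Pik3r1, a regulatory subunit of PI3K, by 0.49 ± 0.09 (adjusted p = 3.68e-05). Pik3cb rose by 0.63 ± 0.09 with FK228 (adjusted p = 8.79e-06), and Rictor, a component of an mTOR complex, by 0.50 ± 0.08 (adjusted p = 8.07e-06). With YF 3 rose and 3 fell, the widest being Foxo6 at -0.49 ± 0.12 (adjusted p = 0.00447). Pik3r1 at -0.35 ± 0.08 (adjusted p = 0.00312) and Pdpk1 at 0.28 ± 0.08 (adjusted p = 0.0115) were also called with YF.

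FOXO targets moved in both directions. Of 8 listed, 6 were tested, and 2 rose and 2 fell in FK228 plus YF against control. The repressor Bcl6 rose by 1.00 ± 0.10 (adjusted p = 4.21e-09) and Sesn3, a stress-response protein, by 0.52 ± 0.10 (adjusted p = 9.45e-05), while Ccng2, a cyclin of the G type, fell by 0.69 ± 0.07 (adjusted p = 8.03e-09) and the cell cycle inhibitor Cdkn1b by 0.63 ± 0.06 (adjusted p = 2.47e-09). With FK228 2 rose and 3 fell: Bcl6 rose by 1.11 ± 0.09 (adjusted p = 1.47e-09) and Sesn3 by 0.91 ± 0.10 (adjusted p = 6.73e-08). Bcl2l11, a pro-apoptotic gene, fell by 0.59 ± 0.10 with FK228 (adjusted p = 2.74e-05), and Cdkn1b by 0.51 ± 0.06 (adjusted p = 9.81e-08). With YF 1 rose and 2 fell, with Ccng2 at -0.36 ± 0.07 (adjusted p = 0.000298), Bcl6 at 0.31 ± 0.10 (adjusted p = 0.0177) and Bcl2l11 at -0.28 ± 0.10 (adjusted p = 0.033).

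The IGF2 mRNA-binding proteins, a family named for a target transcript, all fell in FK228 plus YF against control. Igf2bp1 fell by 1.12 ± 0.09 (adjusted p = 6.74e-10), Igf2bp3 by 0.80 ± 0.06 (adjusted p = 2.88e-10) and Igf2bp2 by 0.79 ± 0.06 (adjusted p = 1.71e-10). With FK228 all 3 fell too, Igf2bp1 by 0.61 ± 0.09 (adjusted p = 4.28e-06), Igf2bp3 by 0.49 ± 0.06 (adjusted p = 7.76e-07) and Igf2bp2 by 0.18 ± 0.06 (adjusted p = 0.0135). With YF only Igf2bp2 fell, by 0.16 ± 0.06 (adjusted p = 0.0492). The interaction was called lower for all 3, beside 15.3% of all tested genes. It was -0.45 ± 0.09 for Igf2bp2 (adjusted p = 0.000566), -0.37 ± 0.09 for Igf2bp3 (adjusted p = 0.00425) and -0.37 ± 0.13 for Igf2bp1 (adjusted p = 0.0386). Such calls were not particular to this list: of 60 tested pathway genes, 15 were called lower and 5 higher. Wider values in other lists included Tmprss2 at -0.80 ± 0.19 (adjusted p = 0.00356), Bcl2l11 at 0.74 ± 0.14 (adjusted p = 0.000724) and Tsc2 at 0.72 ± 0.09 (adjusted p = 5.29e-06). The YF calls of Ghr, Tmprss2, Gab1, Pdpk1, Bcl6, Bcl2l11 and Igf2bp2, and the FK228 call of Igf2bp2, were each lost when at least 1 library was left out.

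**Figure D4:**
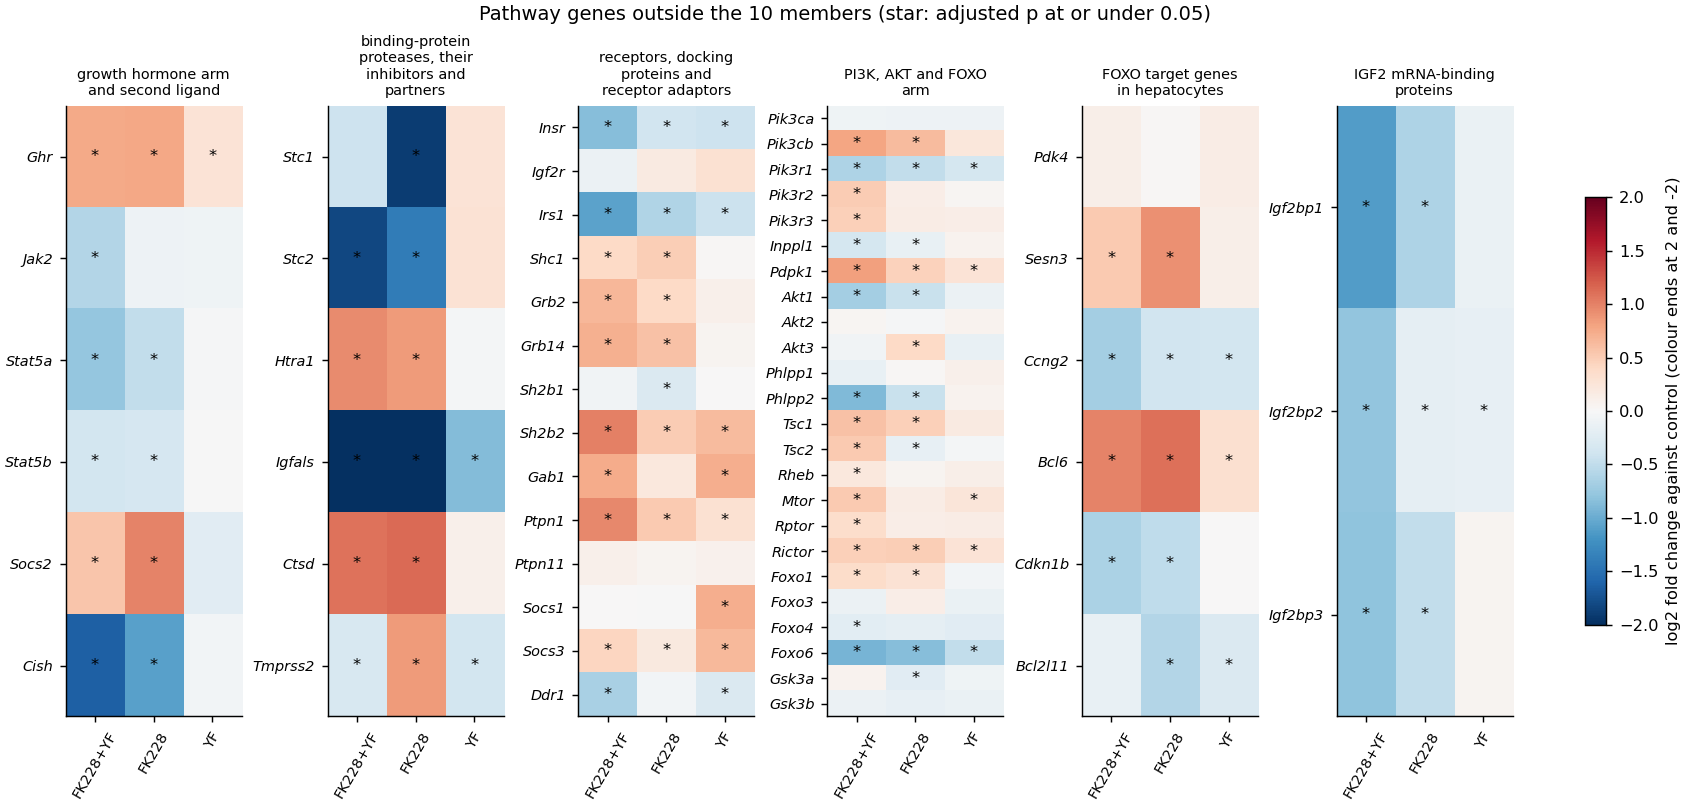
Log2 fold changes (colour) of tested pathway genes (rows) by list in FK228 plus YF, FK228 and YF, each against control (columns), with a star for an adjusted p at or under 0.05. In FK228 plus YF 24 genes rose and 21 fell, with Igfals lowest at -3.26 (26 summed counts in that group) and Ctsd at 1.08 among the highest.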

How the data were processed

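RNA-seq libraries of AML12 cells were sequenced on a BGISEQ platform, per the labels' protocols. The authors deposited 1 table with estimated counts and TPM per gene and library. Build GRCm38.p6, RSEM 1.2.12, HISAT2 2.0.4, DESeq2 1.4.5 and Bowtie2 2.2.5 are named in the submitters' processing notes, with no order. Another 24 per-sample columns were not used. Of the deposited estimated counts, 16.6% were not whole (tolerance 0.001), and all were rounded. The deposited TPM values served for levels between genes and for the sums, shares and ratios of the binding proteins, with no TMM scaling.

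Calls came from edgeR 4.0.16 in R 4.3.3: filterByExpr (minimum count 10), TMM and a robust quasi-likelihood fit with 1 term per group over all 12 libraries, Benjamini-Hochberg adjusted over 13346 genes at 0.05. CPM divides counts by the library's total times its TMM factor. Other settings were DESeq2 size factors, DESeq2 1.42.0, limma-voom (limma 3.58.1), no filter, 5 CPM in 3 libraries, the compared groups alone, the replicate number as a term, and leaving out each library. The scripts were tested on simulated data. Replicates of a group differed beyond sampling noise, with a mean chi-square per gene of 3.65 to 22.6 over genes with at least 100 summed counts. The chi-square used library totals without the TMM factors, so it may include differences that those factors remove.

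Members and lists were chosen with earlier results of these data known. All members were reported. Of each pathway list, up to 4 called genes with the largest fold change and a mean CPM of at least 1 were named in each comparison. Values of pathway genes are given for the comparisons with control. Interaction values are given only for the IGF2 mRNA-binding proteins, Tmprss2, Bcl2l11 and Tsc2. The result of 1 pathway gene is not reported here, although the counts include it.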

Additional observations from a re-analysis of the deposited data

Results flagged for a closer look

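The effect of FK228 differed with YF for 3 members, by edgeR's test of the interaction. The FK228 effect in YF cells minus that in cells without YF was -0.94 on the log2 scale for Igfbp3 (adjusted p = 0.0312), -0.44 for Igfbp4 (adjusted p = 0.00488) and -0.28 for Igfbp7 (adjusted p = 0.0338). The FK228 effect on Igfbp4 and Igfbp7 was more negative when YF was present, and that on Igfbp3 was less positive. The calls of Igfbp3 and Igfbp7 were lost without some single libraries. Hdac1 RNA was also higher in FK228 plus YF than in YF (797 against 402 CPM), and its part in these differences was not tested.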

How the results depend on the processing

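Over the 8 tested members, 7 comparisons and the settings other than leaving out a library, 349 values kept direction and side of the threshold, 2 lost it and 4 gained it. Leaving out each library gave 629 kept, 26 lost, 5 gained and 12 with a changed sign. The filter of 5 CPM removed low members and left 1 higher and 2 lower in FK228 against control, and 1 higher in YF against control, FK228 plus YF against control and FK228 plus YF against FK228. FK228 plus YF against YF called 2 higher with DESeq2 size factors, limma-voom and the compared groups alone. Leaving out a library gave 1 to 2 higher in FK228 plus YF against YF and against FK228, 0 to 1 higher in FK228 against YF and 1 to 3 lower in the interaction. Among pathway genes, YF against control ranged over 6 to 11 higher and 7 to 14 lower, the lowest counts being 6 and 7 without control replicate 3 and 7 lower without control replicate 2. Signs changed only for values that missed the threshold. Igfbp6 ranged over -0.38 to 0.39 in FK228 against control and -0.81 to 0.064 in FK228 plus YF against FK228, Irs2 over -0.018 to 0.044 in FK228 against YF, and Igf1r over -0.14 to 0.052 in the interaction. The cause was not tested. Libraries with the same replicate number did not deviate together (r from -0.41 to 0.13, 2 of 18 pairs over 0.1), so the numbers were not taken to pair samples. With the replicate block, the Igfbp7 interaction was -0.28 (adjusted p = 0.0505), and no other member changed its call. Of the named pathway values, 24 lost their call and 965 kept it under the other settings, and 78 lost it and 1662 kept it when a library was left out. Counts under 3 per library limited Igfbp1 and Igfbp2.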

Other observations

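Pathway genes below the testing filter are given as levels only. Igf2, the second ligand, averaged 0.152 ± 0.0877 CPM in FK228 plus YF, 0.189 ± 0.292 in FK228, 0.0781 ± 0.0692 in YF and 0.0258 ± 0.0447 in control (SD, n = 3 each), and 1 library, FK228 replicate 2 at 0.526 CPM, held most of the FK228 level. Igfbpl1, a binding protein relative, had 12 counts in FK228 plus YF, 6 in FK228, 1 in YF and 0 in control, summed over 3 libraries. Insrr, a receptor of the insulin receptor family, had 17 counts in FK228 plus YF, 1 in FK228, 2 in YF and 1 in control. The FK228 plus YF libraries were uneven, at 0.417, 0.283 and 0 CPM. Pck1, a FOXO-induced enzyme of gluconeogenesis, had 1 count in FK228 plus YF, 1 in FK228, 0 in YF and 0 in control. No test was run on these genes.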
